A study of Homo sapiens with 18 samples.

Results

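The 178 protein-coding olfactory receptor genes of human chromosome 11 were followed through the H3K27ac and CTCF ChIP-seq peaks of HEK293T cells. The rule was the symbol (OR, a family number, letters, a number and any closing letters) in the GENCODE annotation of hg38, with no measured value in it. In 6 genes the symbol ends in P. The chromosome carries 1139 other protein-coding genes, and chromosomes 1 to 22 carry 19111 protein-coding genes in all. HEK293T is a transformed human line of embryonic kidney origin. The cells were untreated (CTRL) or given 1 mM valproic acid (VPA), a histone deacetylase inhibitor, for 1 day, with 3 replicates for each antibody and treatment. The 12 resulting peak lists were used, and the 6 input libraries were not analysed here. The labels do not say whether replicates came from separate cultures, so p-values measure the spread between these libraries, which may be technical.

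Olfactory receptors are G protein-coupled receptors that bind odorants. Each olfactory sensory neuron expresses a single receptor gene, from a single allele, out of a very large family arranged in clusters on many chromosomes. In neurons the genes that are not chosen are packed into heterochromatin, and the receptors divide into class I, related to those of fish, and class II, which make up most of the mammalian family. H3K27ac is an acetylation of histone H3 carried by active regulatory elements. CTCF is a zinc finger protein that binds DNA and stops loop extrusion, so that it sits at the bases of many loops. HEK293T cells have no known olfactory function.

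Neighbouring genes were joined into a cluster where at most 100 kb separated them and at least 3 genes were joined, with 10 kb added on either side. This gave 13 clusters with 171 of the 178 genes. The other 7 (OR4A47, OR4A16, OR4A15, OR5AK3P, OR5AK2, OR10V1 and OR2AT4) lay outside. The clusters covered 5.09 Mb of sequence, 3.78% of the chromosome, and had a GC content of 37.7% against 41.7% in the rest. Of positions tested, 84.9% began a 32-base word found once in the genome, against 84.4% in the rest of the chromosome. All 57 class I genes lay in the first 3 clusters, which held no class II gene, and the 121 class II genes made up the others. The median gene was 1095 bp long, but the annotated models of OR51B5 (202209 bp) and OR9Q1 (157736 bp) span several other genes. The 5' end of each annotated model served as its transcription start site (TSS).

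The lists held 26299 to 40992 H3K27ac peaks and 36469 to 58782 CTCF peaks. The CTCF lists of replicate 1 were the shortest under both treatments, with 39818 peaks in CTRL and 36469 in VPA. The main CTCF results are therefore also given for replicates 2 and 3 alone, and their counts of genes and regions and their edge densities were added after the data had been seen. Kidney lineage genes gave a mixed picture, with an H3K27ac peak within 1 kb of the TSS in all 6 libraries for LHX1 and WT1 and in none for PAX2 and PAX8. Of 4 housekeeping genes, 3 had one in all 6 libraries, and ACTB had one in 5.

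No olfactory receptor gene had an H3K27ac peak over its body or within 1 kb of its TSS, in any of the 6 H3K27ac libraries. A peak within 1 kb of the TSS was found in 6 of 6 libraries for 56.8% of the other coding genes of the chromosome and for 58.1% of all coding genes of chromosomes 1 to 22. The wider window of the gene body plus 10 kb either side held an H3K27ac peak for 2, 1 and 1 olfactory receptor genes in the CTRL libraries and for 1 gene in each VPA library. These counts are 0.562% to 1.12% of the family. Among the other coding genes 71.6% to 79.7% had a peak in the window, a difference for the family of -76.1 ± 3.1 percentage points (SD, n = 6 libraries). The difference had the same direction in 6 of 6 libraries (exact two-sided sign-flip test, p = 0.03125, the smallest that 6 libraries allow, adjusted p = 0.043 over 11 comparisons). The windows of neighbours overlap, so 1 peak can be counted for several genes. A window also grows with the length of its gene. Gene length was not matched in any of the window comparisons between the family and other genes, for either antibody.

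The gene counted in all 6 libraries was OR2D3, which has the peak of a neighbour within reach rather than one of its own. That peak lay 5746 bp from the TSS of OR2D3 and 344 bp from the TSS of ZNF215, a zinc finger gene that shares the end of the cluster. The other gene was OR52B2, 9176 bp from a peak called in CTRL replicate 1 alone. Over all coding genes of chromosomes 1 to 22, 73.6% had an H3K27ac peak in the window in 6 of 6 libraries, against this 1 of 178.

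**Figure D1:**
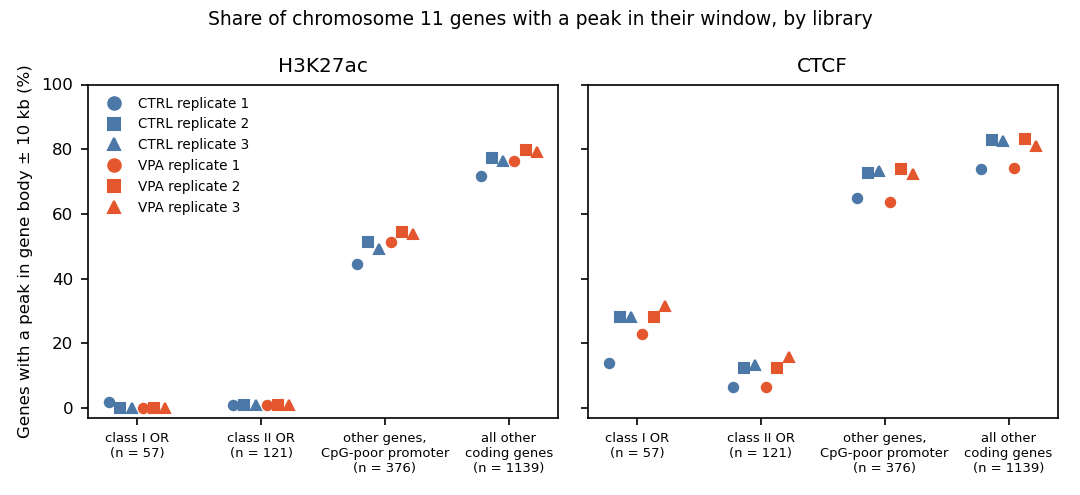
Share of genes on chromosome 11 with an H3K27ac (left) or CTCF (right) peak in the gene body ± 10 kb, in percent, with 1 point for each library, coloured by treatment and shaped by replicate. Class I and class II olfactory receptor genes lie near 0 for H3K27ac and below 32% for CTCF, while the 376 other genes with CpG-poor promoters lie at 44.4% to 54.3% and 63.6% to 73.9%.

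Promoters of the family are poor in CpG dinucleotides. In the 300 bases from 250 before to 50 after the TSS, the median olfactory receptor gene had 1 CpG, an observed over expected ratio of 0.116, and 48 of the 178 had none. The median other coding gene of the chromosome had 17 CpG and a ratio of 0.67. The comparison was therefore repeated, with a setting added after the data had been seen, against the 376 other genes whose ratio did not exceed the 95th percentile of the family. This capped the ratio without matching it. The median of the 376 was 3 CpG, a ratio of 0.198 and a GC content of 50.3%, against 37.3% GC in the family. Of those genes 44.4% to 54.3% had an H3K27ac peak in the window, and the difference for the family was -50.1 percentage points (exact sign-flip p = 0.03125, 6 of 6 libraries). The contrast is shown by the 250 bases before the RefSeq start (GRCh38.p14) of a few genes, with CpG in capitals. RefSeq promoter sequences matched 133 of the 178 genes by symbol. TRIM68 (chr11:4608232-4608481, minus strand) and TRIM21 (chr11:4393703-4393952, minus strand) had an H3K27ac peak in 6 of 6 libraries, and OR2D3 (chr11:6920752-6921001, plus strand) and OR52K1 (chr11:4482396-4482645, plus strand) had none at the TSS. OR52N2 (chr11:5808674-5808923, plus strand) had CTCF but no H3K27ac there.
TRIM68: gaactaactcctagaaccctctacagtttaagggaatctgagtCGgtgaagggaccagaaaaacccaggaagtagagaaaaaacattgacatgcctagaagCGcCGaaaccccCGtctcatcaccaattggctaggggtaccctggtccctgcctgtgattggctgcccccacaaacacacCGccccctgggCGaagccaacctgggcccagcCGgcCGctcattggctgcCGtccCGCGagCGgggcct
TRIM21: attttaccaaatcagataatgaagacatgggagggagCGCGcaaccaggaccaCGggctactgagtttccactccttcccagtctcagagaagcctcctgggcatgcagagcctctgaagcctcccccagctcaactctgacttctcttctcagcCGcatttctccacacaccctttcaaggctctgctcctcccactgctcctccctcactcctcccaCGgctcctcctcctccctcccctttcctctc
OR2D3: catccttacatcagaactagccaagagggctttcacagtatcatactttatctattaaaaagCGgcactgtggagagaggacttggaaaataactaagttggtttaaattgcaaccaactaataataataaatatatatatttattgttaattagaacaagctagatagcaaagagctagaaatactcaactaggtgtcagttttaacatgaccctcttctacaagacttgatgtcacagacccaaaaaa
OR52K1: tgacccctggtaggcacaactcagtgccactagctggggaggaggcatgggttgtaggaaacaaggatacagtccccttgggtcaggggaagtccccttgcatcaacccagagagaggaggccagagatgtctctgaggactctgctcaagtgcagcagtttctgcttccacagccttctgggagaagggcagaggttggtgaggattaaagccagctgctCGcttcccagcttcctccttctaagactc
OR52N2: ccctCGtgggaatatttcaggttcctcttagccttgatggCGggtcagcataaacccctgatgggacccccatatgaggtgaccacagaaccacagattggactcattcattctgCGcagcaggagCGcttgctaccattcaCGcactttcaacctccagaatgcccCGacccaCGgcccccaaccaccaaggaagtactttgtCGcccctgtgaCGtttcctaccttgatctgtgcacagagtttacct
These stretches hold 12 CpG in TRIM68, 5 in TRIM21, 1 in OR2D3, 1 in OR52K1 and 9 in OR52N2. CpG number alone did not separate the acetylated from the unacetylated starts among these genes, which were chosen to show the contrast.

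Inside the clusters, H3K27ac summits were counted per Mb of sequence. They numbered 4, 4 and 5 inside in the CTRL libraries and 3, 4 and 4 in the VPA libraries. The rest of the chromosome had 1220, 1411 and 1421 in CTRL against 1791, 1897 and 1877 under VPA. The density was 0.787 ± 0.124 per Mb inside and 12.4 ± 2.22 per Mb outside (SD, n = 6). The log2 ratio of inside over outside was -3.97 ± 0.42 and negative in 6 of 6 libraries (exact sign-flip p = 0.03125, adjusted p = 0.043). Fewer other coding genes start in the clusters (2.56 TSS per Mb) than in the rest (8.7 TSS per Mb). Restricted to sequence more than 50 kb from the TSS of any other coding gene, 3.97 Mb inside and 75.8 Mb outside, the log2 ratio of the mean densities was -4.13 (exact sign-flip test, adjusted p = 0.043). Joining genes at up to 500 kb gave 10 clusters of 6.11 Mb with 26 other coding TSS in place of 13, and log2 ratios of -2.38 over all sequence and -1.52 far from other genes. In the clusters joined at 100 kb, summits in the far sequence numbered 0, 1 and 2 in CTRL and 0, 1 and 1 under VPA.

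**Figure D2:**
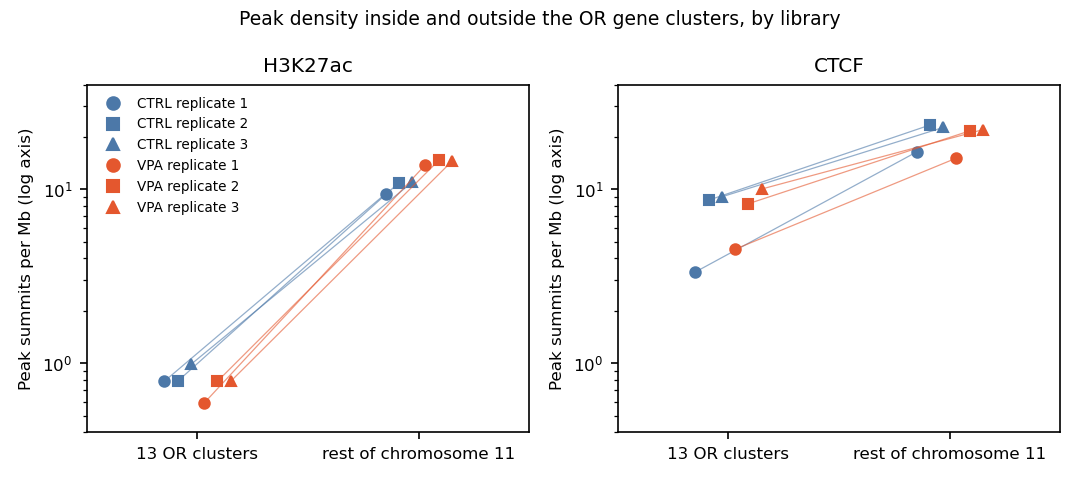
Peak summits per Mb (log axis) inside the 13 olfactory receptor gene clusters and in the rest of chromosome 11, for H3K27ac (left) and CTCF (right), with a line joining the values of each library. Every line rises from the clusters to the rest, by more for H3K27ac (0.59 to 0.983 per Mb inside, 9.42 to 14.7 outside) than for CTCF (3.34 to 10.0 inside, 15.1 to 23.4 outside).

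Merged over libraries, the clusters held 6 H3K27ac regions, and 3 of them were present in 6 of 6 libraries. All 3 sat at promoters of genes outside the family. The region of TRIM68, an E3 ubiquitin ligase, lay 222 bp from its TSS (chr11:4607031-4608855), with fold enrichments over local background of 8.70, 24.8 and 19.4 in CTRL and 8.85, 21.2 and 24.2 in VPA. The region of ZNF215 (chr11:6925073-6928008) had 10.4, 20.9 and 24.7 in CTRL and 7.32, 20.7 and 23 in VPA. The region of TRIM21, a cytosolic antibody receptor and ubiquitin ligase (chr11:4393100-4393995, 175 bp from its TSS), was weaker at 2.32, 7.54 and 5.42 in CTRL and 3.17, 9.24 and 8.21 in VPA. In fold enrichment, replicate 1 was lowest in each treatment group for TRIM21, TRIM68 and ZNF215, and CTRL and VPA overlapped for each gene. Fragments over the summit, recovered as described below, went otherwise. At TRIM21 they were 69, 59 and 56 in CTRL and 88, 83 and 90 in VPA, without overlap. Replicate 1 had the most in each treatment group at TRIM68 (354 in CTRL, 287 in VPA) and ZNF215 (358 and 314). Library depth is unknown, and these differences were not tested.

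The other 3 H3K27ac regions were faint and far from any promoter. One lay 26456 bp from the TSS of OR52B2 and had 24 fragments over its summit in CTRL replicate 3, 35 in VPA replicate 2 and 35 in VPA replicate 3. Another, 9176 bp from the same TSS, had 23 fragments and was called in CTRL replicate 1 only. The last lay 13967 bp from the TSS of OR8K1 and had 14 and 16 fragments in CTRL replicates 2 and 3. For comparison, the TRIM68 region had 213 to 354 fragments. Fragment numbers were recovered from the fold enrichment and p-value of each peak, and all 270 recovered values in and around the clusters were whole within 0.05.

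Of 13 other coding genes that start inside a cluster, the remaining 10 had no H3K27ac peak within 1 kb of the TSS in any library. They include MMP26, a matrix metalloproteinase gene that surrounds several class I receptors, and the globin genes HBG2 and HBE1, whose annotated models reach into the OR51B4-OR52B6 cluster. The beta-globin genes HBB, HBD and HBG1, in the 100 kb between OR51V1 and OR51B4, had no peak of either antibody in their windows in any library. That interval held 0 H3K27ac regions and 3 CTCF regions, none of the latter in 6 of 6 libraries.

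Stretches of chromosome 11 without an H3K27ac peak in any of the 6 libraries were ranked by length. The fourth in length ran over 2564 kb and held 35 olfactory receptor genes, from OR4C46 to OR8K3, with 2 other coding TSS. The nineteenth ran over 987 kb from OR51D1 to OR52B6, with 32 olfactory receptor genes and 9 other coding TSS. Together these held 37.6% of the family, while the 20 longest stretches held 4.83% of the other coding TSS. The other 18 of the 20 held no olfactory receptor gene, so long stretches without H3K27ac were not particular to the clusters.

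CTCF was also sparser in the clusters, but much less so than H3K27ac. CTCF summits in the clusters numbered 17, 44 and 46 in CTRL and 23, 42 and 51 under VPA, with the low values in replicate 1 of each. The density was 7.31 ± 2.71 per Mb inside and 20.2 ± 3.53 outside (SD, n = 6), a log2 ratio of -1.55 ± 0.41 (exact sign-flip p = 0.03125, adjusted p = 0.043, 6 of 6 libraries). Without replicate 1 it was -1.32 in 4 libraries, where the smallest possible p is 0.125. More than 50 kb from other coding TSS the log2 ratio was -0.76 ± 0.37 (exact sign-flip test, adjusted p = 0.043). The log2 ratio of CTCF exceeded that of H3K27ac by 2.42 ± 0.65 in libraries of the same treatment and number (exact sign-flip test, adjusted p = 0.043), and by 1.08 with clusters joined at 500 kb.

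**Figure D3:**
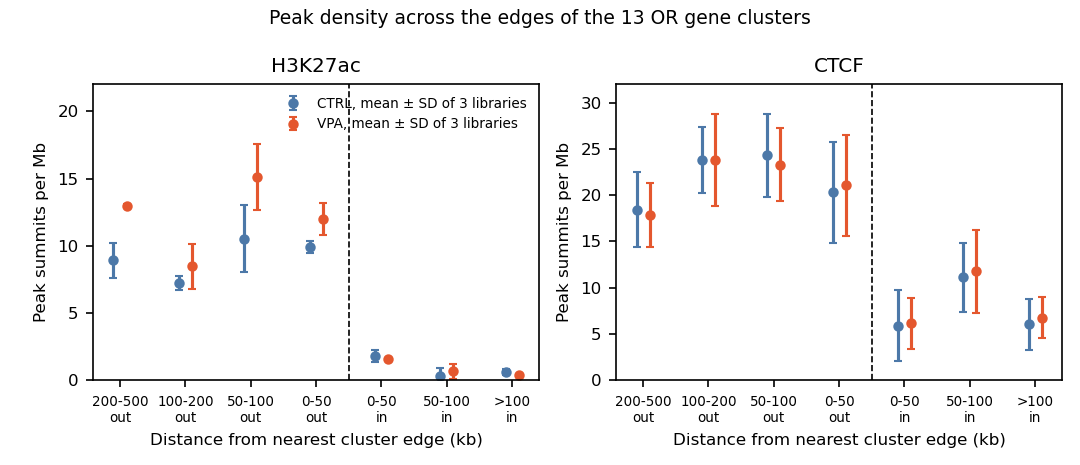
Peak summits per Mb against distance from the nearest edge of the 13 clusters, in bins outside (left of the dashed line) and inside, as mean ± SD of 3 libraries for each treatment. H3K27ac falls from 9.89 (CTRL) and 12 (VPA) per Mb in the 50 kb outside to 1.79 and 1.54 in the 50 kb inside, and CTCF from 20.3 and 21.1 to 5.9 and 6.15.

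Density was compared across the cluster edges. In the 50 kb outside, the H3K27ac density was 10.9 ± 1.40 per Mb and the CTCF density 20.7 ± 4.91 per Mb (SD, n = 6), with 19 other coding TSS. In the first 50 kb inside they were 1.67 ± 0.31 and 6.03 ± 2.98, with 3 other coding TSS. The lowest and highest libraries of these bins did not overlap for either antibody. From 50 to 100 kb inside, H3K27ac was at 0.49 ± 0.54 per Mb and CTCF at 11.4 ± 3.70. The CTCF range there was 6.86 to 15.7, and the lowest library of the 50 kb outside, from replicate 1, was at 14.1. That overlap set replicate 1 outside against other replicates inside. Without replicate 1 the ranges were apart, with at most 15.7 per Mb from 50 to 100 kb inside and at least 22.7 in the 50 kb outside. In replicates 2 and 3 alone CTCF averaged 23.8 per Mb in the 50 kb outside, 7.88 in the first 50 kb inside and 13.7 in the next. Measured from the first and last gene body of each cluster, the nearest H3K27ac region present in 6 of 6 libraries lay within 50 kb for 8 of 26 edges, with a median of 213 kb. The nearest were 4.75 kb beyond OR2D3, at ZNF215, then 12.2 kb beyond OR6X1, at ZNF202, and 14.4 kb beyond OR52B6, at TRIM6. The CTCF equivalent lay within 50 kb for 10 of 26 edges, with a median of 87.7 kb.

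The CTCF signal was spread unevenly over the clusters. The OR52B4-OR51V1 cluster of 27 class I genes held 7 to 11 summits in each library, and the OR4C15-OR5G3 cluster, with 46 class II genes over 1286 kb, held 2 to 6. The OR6X1-OR10G7 cluster of 11 genes over 308 kb and the OR4C46-OR4A5 cluster of 3 genes had no peak of either antibody in any library. Positions starting a unique 32-base word made up 87.5% of the former and 54.0% of the latter, the lowest share of the 13 clusters. H3K27ac peaks were absent from 9 of the 13 clusters.

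**Figure D4:**
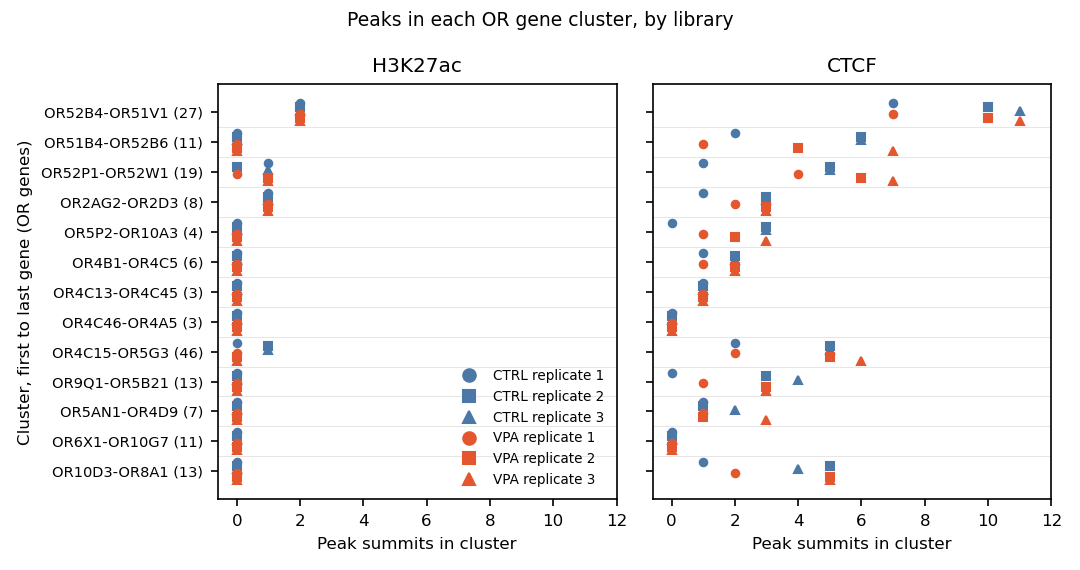
Number of H3K27ac (left) and CTCF (right) peak summits in each cluster, in order along the chromosome and named by first and last gene with the number of olfactory receptor genes in brackets, with 1 point for each library. H3K27ac never exceeds 2 summits in a cluster, while CTCF reaches 11 in the first cluster and is 0 in all libraries in OR4C46-OR4A5 and OR6X1-OR10G7.

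Among the genes, 16, 31 and 32 had a CTCF peak in the window in the CTRL libraries and 21, 31 and 37 in the VPA libraries, 8.99% to 20.8% of the family. Of the other coding genes 74.0% to 83.1% had one, a difference of -63.9 ± 2.17 percentage points (exact sign-flip test, adjusted p = 0.043). In 6 of 6 libraries, 12 of the 178 genes had a CTCF peak in the window, against 71.2% of all coding genes of chromosomes 1 to 22. In the 4 libraries of replicates 2 and 3, 29 genes had one in each, against 80.5% of all coding genes. In all, 38 genes had one in at least 1 library, and 140 had none.

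Class I genes had CTCF nearby more often than class II genes. The share of class I genes with a CTCF peak in the window was 14.0%, 28.1% and 28.1% in CTRL and 22.8%, 28.1% and 31.6% in VPA. For class II genes it was 6.61%, 12.4% and 13.2% in CTRL and 6.61%, 12.4% and 15.7% in VPA. The difference of 14.3 ± 3.39 percentage points was positive in 6 of 6 libraries (exact sign-flip p = 0.03125, adjusted p = 0.043), and without replicate 1 it was 15.5. With no flank around the gene bodies it was 8.15, and with windows of 50 kb 21.2. Class and position cannot be told apart, since the class I genes fill 3 adjoining clusters. The class I clusters held 11.1 ± 3.61 CTCF summits per Mb and the class II clusters 5.48 ± 2.28 (SD, n = 6). These SDs cover the spread between libraries and not between clusters. Averaged over libraries, the class I clusters had 10.9, 14.4 and 9.45 per Mb. OR2AG2-OR2D3 (14.2), OR5P2-OR10A3 (12.1), OR4C13-OR4C45 (9.86) and OR4B1-OR4C5 (9.82), all class II, lay in the same range. The remaining class II clusters lay lower, at 0 to 8.74, with 3.24 in OR4C15-OR5G3. For H3K27ac the class difference was -0.53 percentage points (exact sign-flip p = 0.219, adjusted p = 0.219), and with windows of 50 kb it turned to 6.82 in favour of class I.

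Over the gene body or within 1 kb of the TSS, CTCF was found at 10 genes in at least 1 library. OR52K1, OR51D1, OR51B5, OR52N2 and OR5D3P had such a peak in all 6 libraries, OR51M1 in 5, OR51L1 and OR9Q1 in 4, and OR56A1 and OR2AT4 in 3. Those of OR51B5 and OR9Q1 lay inside the long models named above. At the TSS itself, within 1 kb, only OR51D1 and OR52N2 had CTCF, in 6 of 6 libraries, where 24.3% of all coding genes did. The OR51D1 region (chr11:4636613-4637652) had its summit 402 bp from the TSS and fold enrichments of 103, 50.9 and 59.0 in CTRL and 17.3, 92.1 and 85.4 in VPA. Its highest and lowest values were both in replicate 1. The same region lay in the window of OR51E1, a receptor gene also known from prostate tissue. The OR52N2 region (chr11:5807501-5809176) lay 286 bp from the TSS, with 17.4, 71.9 and 58.8 in CTRL and 11.1, 71.8 and 37.7 in VPA. At OR52K1 the region (chr11:4492950-4493913) fell in the last part of the gene, in an exon outside the coding sequence, with 25.8, 74.1 and 47.4 in CTRL and 18.8, 94.4 and 67 in VPA.

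**Figure D5:**
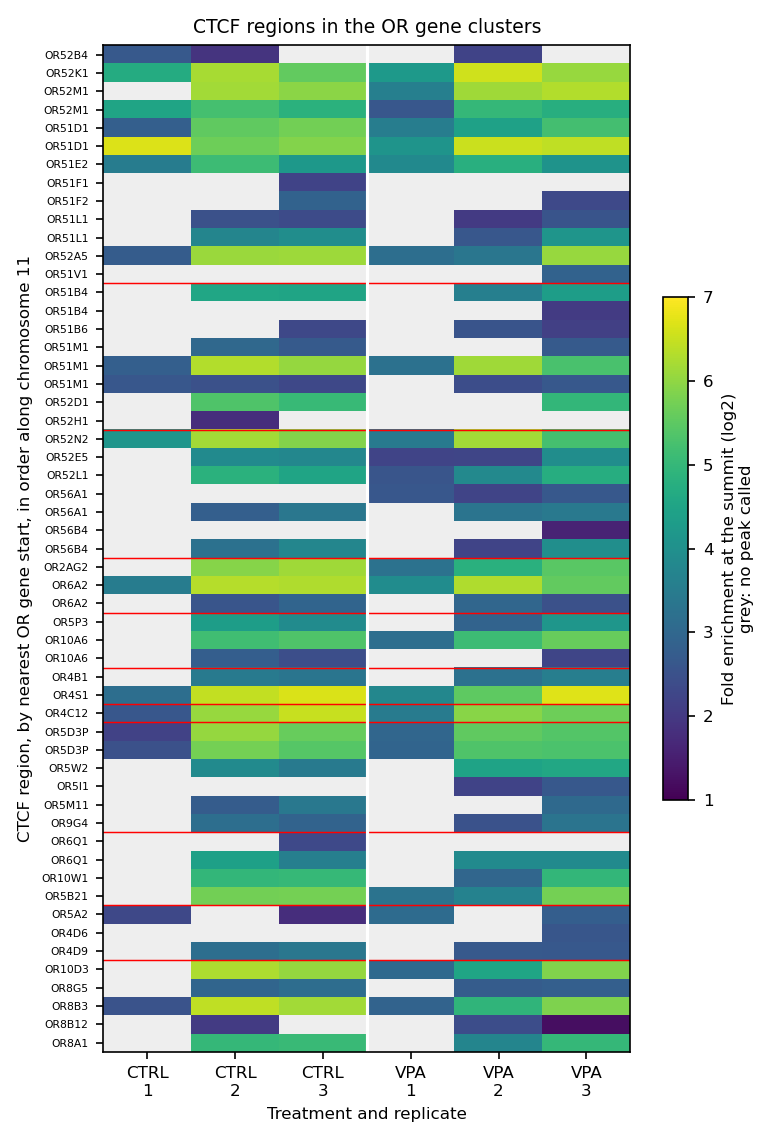
Fold enrichment (log2, colour) of the 55 CTCF regions of the clusters in the 6 CTCF libraries, with rows in order along the chromosome and named by the nearest olfactory receptor gene start, red lines between clusters, and grey where no peak was called. Replicate 1 of each treatment is grey in most rows, and OR56A1 has the row that is coloured in the 3 VPA libraries only.

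Merged over libraries, the clusters held 55 CTCF regions, of which 14 (25.5%) were present in 6 of 6 libraries, against 1582 of 3525 (44.9%) in the rest of the chromosome. This contrast rested on replicate 1, since 37 of 55 (67.3%) were present in all 4 libraries of replicates 2 and 3, against 2392 of 3525 (67.9%) in the rest. Their summits lay a median of 11.1 kb from the nearest olfactory receptor TSS. Only 11 fell in the body of such a gene, 5 in an exon and 2 in coding sequence. These 2 were in OR51M1 and OR5D3P. Of receptors with a known ligand, OR6A2, an aldehyde receptor, had no CTCF peak in its window in any library. A region 12915 bp from its TSS had fold enrichments of 11.4, 80.7 and 77.8 in CTRL and 15.2, 77.9 and 47.3 in VPA. OR2AT4, known from skin keratinocytes, had a CTCF peak in its window in 3 CTRL and 2 VPA libraries, with folds of 5.29 to 10.6.

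None of the 55 CTCF regions touched an H3K27ac region of any library, while 1037 of 3525 (29.4%) in the rest of the chromosome did. Among regions more than 50 kb from other coding TSS the counts were 0 of 42 inside and 155 of 1321 (11.7%) outside. With 6 H3K27ac regions in the clusters there was little for CTCF to touch, and no test was made of these shares.

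The sequence at the summits was searched for a core of the CTCF motif (CC, any 3 bases, AG, any 2 bases and GGC) on both strands within 100 bp. The core was found at 18 of 55 cluster regions (32.7%) and at 31.4% of those in the rest of the chromosome, against 2.52% of windows placed 2 kb away outside the clusters. It lay on the plus strand in 8 cluster regions and on the minus strand in 10. Of the 14 cluster regions present in 6 of 6 libraries, 7 held it. Sites are named by the nearest olfactory receptor TSS, 13218 bp away for OR4C12 and 12915 bp for OR6A2. Several are printed here from hg38 in the direction of the motif, 100 bases each and 30 bases for OR52K1, with the core in capitals, to show the sites that carried CTCF in every library. They are the OR51D1 start (chr11:4637027-4637126, plus strand), a second site 11103 bp from the OR51D1 TSS (chr11:4626340-4626439, plus), OR4C12 (chr11:49995720-49995819, minus), OR52A5 (chr11:5124199-5124298, plus), OR6A2 (chr11:6812536-6812635, plus) and OR52K1 (chr11:4493422-4493451, minus).
OR51D1 start: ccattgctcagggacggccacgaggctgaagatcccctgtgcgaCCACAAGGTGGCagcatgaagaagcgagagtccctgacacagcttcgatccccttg
OR51D1 second site: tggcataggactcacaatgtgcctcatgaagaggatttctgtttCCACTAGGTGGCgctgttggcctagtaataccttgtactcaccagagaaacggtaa
OR4C12: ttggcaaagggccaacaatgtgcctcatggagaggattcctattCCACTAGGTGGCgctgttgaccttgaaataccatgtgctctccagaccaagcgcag
OR52A5: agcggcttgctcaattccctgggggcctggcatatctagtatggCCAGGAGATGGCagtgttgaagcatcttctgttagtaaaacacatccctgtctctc
OR6A2: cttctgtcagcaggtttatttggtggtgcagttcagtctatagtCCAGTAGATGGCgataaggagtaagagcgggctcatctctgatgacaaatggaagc
OR52K1: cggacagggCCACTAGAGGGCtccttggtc
The second OR51D1 site and the OR4C12 site lay in a class I and a class II cluster on the same chromosome arm. Compared without gaps, they matched at 58 of 100 bases, and stretches displaced by an inserted or missing base were not counted. They shared an unbroken run of 21 bases around the core. That run occurred 2 times on chromosome 11, both under CTCF regions present in 6 of 6 libraries. The pair was noticed after the sequences had been seen. The fold enrichments were 7.09, 46.3 and 53.0 in CTRL and 11.7, 21.5 and 37.2 in VPA at the OR51D1 site, and 6.23, 67.7 and 89.8 in CTRL and 11.3, 60.7 and 50.8 in VPA at the OR4C12 site.

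The olfactory receptor genes of chromosome 11 had no H3K27ac over their bodies or starts under VPA either. Of H3K27ac regions on chromosomes 1 to 22, 4.12% were present in 3 of 3 VPA and 0 of 3 CTRL libraries, and in the rest of chromosome 11 they were 108 of 2515. In the clusters they were 0 of 6. No olfactory receptor gene gained an H3K27ac peak in its window by this rule, where 0.68% of all coding genes did. With so few regions and genes, both counts are near these shares and show no difference from them. The number of H3K27ac summits in the clusters was 4.33 ± 0.58 in CTRL and 3.67 ± 0.58 in VPA (exact permutation p = 0.6, adjusted p = 0.84 over 6 comparisons). The rest of the chromosome had more summits in each VPA library than in any CTRL library, and the log2 density ratio was -3.62 ± 0.16 in CTRL and -4.33 ± 0.20 in VPA, a change of -0.71. The exact permutation p of 0.1 is the smallest that 3 against 3 libraries allow, and the adjusted p was 0.6. The change shrank to -0.14 (exact permutation p = 0.7) with lists cut to equal length, to -0.089 (p = 0.5) when bases covered were compared in place of summits, and to -0.44 (p = 0.3) with a q-value of at least 3 on the −log10 scale.

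CTCF in the clusters did not differ between treatments beyond its spread. The clusters held 35.7 ± 16.2 CTCF summits in CTRL and 38.7 ± 14.3 in VPA (exact permutation p = 0.7, adjusted p = 0.84), and without CTRL replicate 1 the difference turned from 3 to -6.33. One CTCF region of 55 was present only in VPA, against 0.186% of all CTCF regions, and 0 only in CTRL, against 0.326%. It lay in OR56A1 (chr11:6022972-6023363), in an exon outside the coding sequence, with 28, 21 and 28 fragments in the VPA libraries and fold enrichments of 6.19, 4.70 and 6.32. OR56A1 was the only olfactory receptor gene whose window had CTCF in every VPA library and in no CTRL library, where 0.0628% of all coding genes did.

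Genes that serve olfactory receptors were read at their starts. Of 10 odour signalling genes covered by the lists, 5 had an H3K27ac peak within 1 kb of the TSS in all 6 libraries, where 58.1% of all coding genes did. These were GNAL, the olfactory G protein alpha subunit, GNB1, ADCY3, the adenylyl cyclase of olfactory cilia, CNGA4, a subunit of the olfactory cyclic nucleotide-gated channel, and RIC8B. ANO2 had one in 2 VPA libraries only, and SLC24A4 in 2 CTRL and 2 VPA libraries. GNG13, CNGB1 and OMP, the olfactory marker protein, had none, and CNGA2, on chromosome X, was not covered. Of the receptor export genes, REEP1 had one in all 6 libraries, and RTP1 and RTP2 had none. The regulators LDB1, EBF1, EMX2, KDM1A, ATF5, CBX5 and ADCY3 had one in all 6 libraries, and LHX2 in 2 CTRL and 2 VPA libraries. CNGA4 starts beyond the OR52P1-OR52W1 cluster, and its H3K27ac region was the nearest to that edge, 35.2 kb from OR52W1. None of these genes showed its TSS peak under VPA alone by that rule, where 0.283% of all coding genes did, and so few genes cannot show a difference from that share. In the wider window, CNGB1 had H3K27ac in 3 VPA and 0 CTRL libraries, where 0.68% of all coding genes did, and GNG13 had it in all 6. Among 11 markers of olfactory sensory neurons 4 had a TSS peak in 6 of 6 libraries (GNAL, ADCY3, CNGA4 and EBF1), LHX2 had one in 4, and 6 had none in any library, among them the defining marker OMP.

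Olfactory receptor genes on the other autosomes also had lower shares than other coding genes. Of these 236 genes 4.24% to 10.6% had an H3K27ac peak in the window and 18.6% to 28.4% a CTCF peak, against 76.3% to 83.7% and 77.8% to 86.9% of the remaining coding genes of chromosomes 1 to 22. For H3K27ac these were 10, 16 and 14 genes in CTRL and 17, 21 and 25 in VPA, without overlap. The VPA lists were also longer, with 38441 to 40992 peaks against 26299 to 29799 in CTRL, and the difference was not tested. Only 1 of the 236 had H3K27ac within 1 kb of the TSS in each library, and the genes on chromosome 11 had none.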

How the data were processed

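ChIP-seq of HEK293T cells was analysed from 12 peak lists (3 libraries for each antibody and treatment). The authors sonicated fixed chromatin to 200 to 600 bp, aligned paired ends to hg38 with Bowtie2 and called peaks in each library with MACS (3.0.0a7 in the submitters' processing notes) at a q-value of 0.05. The use of input and the handling of duplicates are not given in the sources used here. The deposited columns used were the interval, the summit, the fold enrichment (a ratio), the −log10 p-value and the peak's −log10 q-value, and the score was not used. Peak lists carry no read totals, so depth is unknown and an absent peak shows only that none passed the authors' threshold.

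Genes came from GENCODE 44, grouped as the report states. Members and lists were chosen with earlier results of these data known. The named genes are those with a peak of either antibody over the body or at the TSS, those with a peak in 1 treatment only, the ends of clusters, and neighbours with H3K27ac in a cluster. A peak's rank is its percentile by q-value within its list, and a region is the union of overlapping peaks. Differences within libraries were tested by exact two-sided sign-flip tests over 6 libraries and differences between treatments by exact two-sided permutation tests, with Benjamini-Hochberg adjustment over 11 and 6 comparisons. Where libraries had no H3K27ac summit far from other genes, densities were tested as differences, a departure from the planned log ratio. Across 888 H3K27ac regions, the deviations of same-numbered CTRL and VPA libraries correlated (r = 0.835, 0.587 and 0.552). For CTCF r was 0.322, -0.0395 and 0.451. Differently numbered libraries are not compared here, so these values do not show that the numbers pair libraries. Alternatives were a stricter q-value, equal list lengths, other windows and joining distances, unique sequence as length, bases covered, the replicate block and leaving out libraries. One gene of the marker lists is not reported here. Tests were checked on simulated data. Python 3.11.15 and scipy 1.17.1 were used.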

Additional observations from a re-analysis of the deposited data

Results flagged for a closer look

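The difference between the antibodies in the log2 density ratio of clusters over the rest of the chromosome was 2.42 (CTCF minus H3K27ac, exact sign-flip p = 0.03125, positive in 6 of 6 pairs of libraries). It draws attention because the same comparison, clusters against the rest, gave different sizes for the 2 antibodies.

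The change of this log2 ratio with VPA also differed between the antibodies, at 0.26 for CTCF and -0.71 for H3K27ac, a difference of 0.969 (exact permutation of treatment within antibody, 400 assignments, p = 0.035). This test was chosen after the data had been seen and is not adjusted. Leaving out 1 library of each antibody at a time gave 0.646 to 1.18, with p from 0.03 to 0.13. The lowest value, 0.646 (exact permutation p = 0.13), came without CTRL replicate 1, and the p stayed under 0.05 only without CTRL replicate 3 (0.03). It was 0.05 without CTRL replicate 2 or VPA replicate 1, 0.1 without VPA replicate 2 and 0.11 without VPA replicate 3, in exact permutations. With lists of equal length the difference was 0.298 (exact permutation p = 0.45), by bases covered 0.281 (p = 0.58), with a stricter q-value 0.703 (p = 0.12), with clusters joined at 500 kb 0.627 (p = 0.1) and with replicates 2 and 3 alone 0.692 (p = 0.111). It was 1.14 with joining at 50 kb (exact permutation p = 0.025), and permuting within replicate numbers gave p = 0.03125, the smallest that 64 assignments allow, which assumes that the numbers pair the libraries of both antibodies.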

How the results depend on the processing

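Of the alternative values 153 kept their direction and side of an unadjusted p of 0.05, 66 kept the direction but lost significance, 4 gained it and 6 reversed. A value of exactly 0 was counted as keeping the direction. Leaving out 1 library left 5 within-library differences, whose smallest p is 0.0625, and replicates 2 and 3 alone left 4, whose smallest is 0.125, so the loss of significance there follows from the number of libraries. Leaving out each library in turn gave log2 density ratios of -4.07 to -3.86 for H3K27ac, -1.64 to -1.40 for CTCF and 2.29 to 2.65 for their difference. Far from other genes it gave -4.62 to -3.84 and -0.818 to -0.616. Window shares were -77.2 to -75.5 points for H3K27ac, -64.6 to -63.5 for CTCF and 13.9 to 15.7 for class I over class II. With replicates 2 and 3 alone these 8 values were -3.92, -1.32, 2.60, -3.67, -0.603, -77.6, -64.0 and 15.5 in the same order. Changes with VPA were -6.33 to 10.8 CTCF summits, -0.0421 to 0.442 in the CTCF log2 ratio and -1.03 to 4.31 points of CTCF windows. Negative values came without CTRL replicate 1 (-6.33, -0.0421 and -1.03) and without VPA replicate 3 (-3.17 summits and -0.187 points). With windows of 50 kb the H3K27ac class difference was 6.82 points (exact sign-flip p = 0.03125) against -0.53, and the cause was not tested.

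The median rank of cluster peaks within their list was 11.5 points below that of the rest for CTCF and 11.6 above for H3K27ac. Both values are means over 6 libraries, and neither passed the threshold. For H3K27ac each cluster median rests on 3 to 5 summits. The CTCF value was -3.75 in replicates 2 and 3 alone and -7.39 without CTRL replicate 1, and the H3K27ac value was -1.62 in CTRL and 24.9 in VPA, or 6.79 with equal list lengths. It passed for CTCF with equal list lengths (-11.9) and joining at 500 kb (-13.9), and for H3K27ac with joining at 50 kb (25.5) and at 500 kb (21.6). With the replicate block the H3K27ac log2 ratio changed with VPA by -0.71 (exact paired sign-flip p = 0.25, the smallest that 3 pairs allow), and the block changed no call.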
